A study of Mus musculus with 2 samples.

Results

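The genes described here are 51 ligands and receptors of axon guidance, taken by their symbols from a list of the ephrin and Eph, Slit and Robo, netrin, and semaphorin and plexin families, out of the 29311 genes in the deposited tables. All 51 had a row in both tables, and 40 of them had an at least 2-fold higher value in E10.5 forebrain than in ES cells, as had 25.8% of all listed genes. The RNA-seq data cover 2 samples, 1 of each kind, so that no difference has a replicate check and no test was made between them. The first is total RNA from wild type mouse embryonic stem (ES) cells, strain label E14, which are derived from the inner cell mass of the blastocyst and were grown without feeders in serum and LIF. The second is total RNA from wild type forebrain of B6CBAF1/J embryos at E10.5 (E for embryonic day), which the methods describe as isolated from single embryos. The strain differs along with the tissue, so the strain and the cell type cannot be told apart.

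Axon guidance molecules steer the tips of growing axons, the growth cones, by attraction and repulsion, and many of them also control cell migration, tissue boundaries and the growth of blood vessels. Ephrins are cell surface ligands, held by a lipid anchor in the A class and by a transmembrane domain in the B class, and they activate Eph receptor tyrosine kinases on neighbouring cells. Slits are secreted repellents read by Robo receptors. Netrins are laminin-related secreted proteins that attract through Dcc and Neo1 and repel through Unc5 receptors. Semaphorins are secreted or membrane-bound cues, read by plexins and, for most secreted ones, by neuropilins as co-receptors.

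Values are given as the deposited RPKM, a read count per kb of exon with a scaling per sample. The low values of short genes were mostly whole multiples of a step when multiplied by exonic length, which gives the worth of 1 read. This step was 1.22 (ES cells) and 0.819 (E10.5 forebrain) per kb, and it corresponds to 42779991 and 59782430 reads on genes. The deposited values are therefore 52.23 times (ES cells) and 48.97 times (E10.5 forebrain) those of a conventional RPKM made from these reads, and a deposited value of 10 is a low level. The ranges in parentheses are 95% counting intervals, Poisson for a value and binomial for a ratio, both exact and both covering counting error only. A gene was called at least 2-fold different when log2(RPKM + 1) differed by at least 1. This scale understates the difference of genes with low values.

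Cell type markers were first compared with the sample labels. All 8 ES cell markers were higher in ES cells, with a summed RPKM of 41398.7 compared with 161.8 in the forebrain. *Pou5f1* had 11243.84 in ES cells and 42.9 in the forebrain. All 8 forebrain markers were higher in the forebrain (summed RPKM 99.5 in ES cells and 2840.8 in the forebrain), and *Lhx2* was at 0 in ES cells and at 876.64 in the forebrain. The forebrain sample also held RNA of other cell types. The 8 markers of head mesenchyme and neural crest summed to 78.3 in ES cells and 9342.4 in the forebrain, above the sum of the forebrain markers. The 5 neural progenitor markers found summed to 7485.6 in ES cells and 11962.1 in the forebrain. Sums over different genes do not measure the share of a cell type. Of the 8 mesenchyme and neural crest markers, 7 were at least 2-fold higher in the forebrain. *Twist1*, a regulator of head mesenchyme, had 12.84 in ES cells and 1556.07 in the forebrain. The 8 endothelial markers, 7 of them at least 2-fold higher in the forebrain, summed to 630.1 and 2754.9. Most of the ES cell sum came from *Pecam1*, with 551.14 in ES cells and 316.51 in the forebrain. The 6 erythroid markers, among them globins, summed to 373.2 and 799064.7, with no marker of these lists at 0 in the forebrain. Several guidance genes are known to be used by mesenchyme and vessels, and the part of these cells in the differences below was not tested. In whole tissue, fewer cells of a type and less RNA per cell cannot be told apart.

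**Figure D1:**
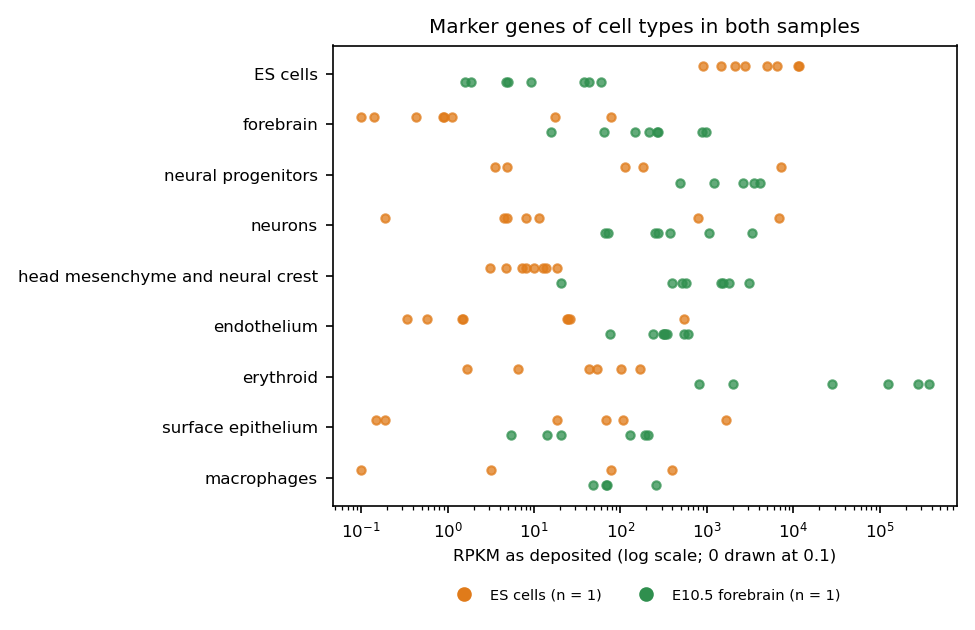
RPKM as deposited (log scale) of each marker gene of 9 cell types in ES cells (orange) and forebrain (green), with 1 point per gene and sample. ES cell markers sit to the right in ES cells only, while markers of forebrain, head mesenchyme and erythroid cells sit to the right in the forebrain.

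Of the 51 guidance genes, 50 had a value above 0 in ES cells and 51 in the forebrain. The median RPKM of the set was 22.84 in ES cells and 258.87 in the forebrain, compared with 79.97 and 123.99 for protein-coding genes. The set thus lay below the typical protein-coding gene in ES cells and above it in the forebrain. In ES cells 19 genes had an RPKM below 5, and in the forebrain none did. Values of 100 or more were reached by 15 genes in ES cells and by 38 in the forebrain. The values rest on 0 to 16876 inferred reads per gene in ES cells, where 17 genes had fewer than 20 reads, and on 47 to 19141 in the forebrain.

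Of the set, 40 genes (78.4%) were at least 2-fold higher in the forebrain, compared with 25.8% of all listed genes and 27.9% of protein-coding genes. A further 5 genes (9.8%) were at least 2-fold higher in ES cells, compared with 23.3% of all listed genes and 18.9% of protein-coding genes. The remaining 6 genes differed by less than 2-fold. The median difference in log2(RPKM + 1), as forebrain minus ES cells, was 3.34 for the set, 0.17 for protein-coding genes and 0.01 for all genes. At least 4-fold differences were found for 33 genes (64.7%) in favour of the forebrain, compared with 15.6% of protein-coding genes, and for 4 genes (7.84%) in favour of ES cells, near the 8.93% of protein-coding genes. Ligands and receptors both took part. Of 21 ligands, 17 were at least 2-fold higher in the forebrain and 2 in ES cells, and of 30 receptors 23 and 3.

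**Figure D2:**
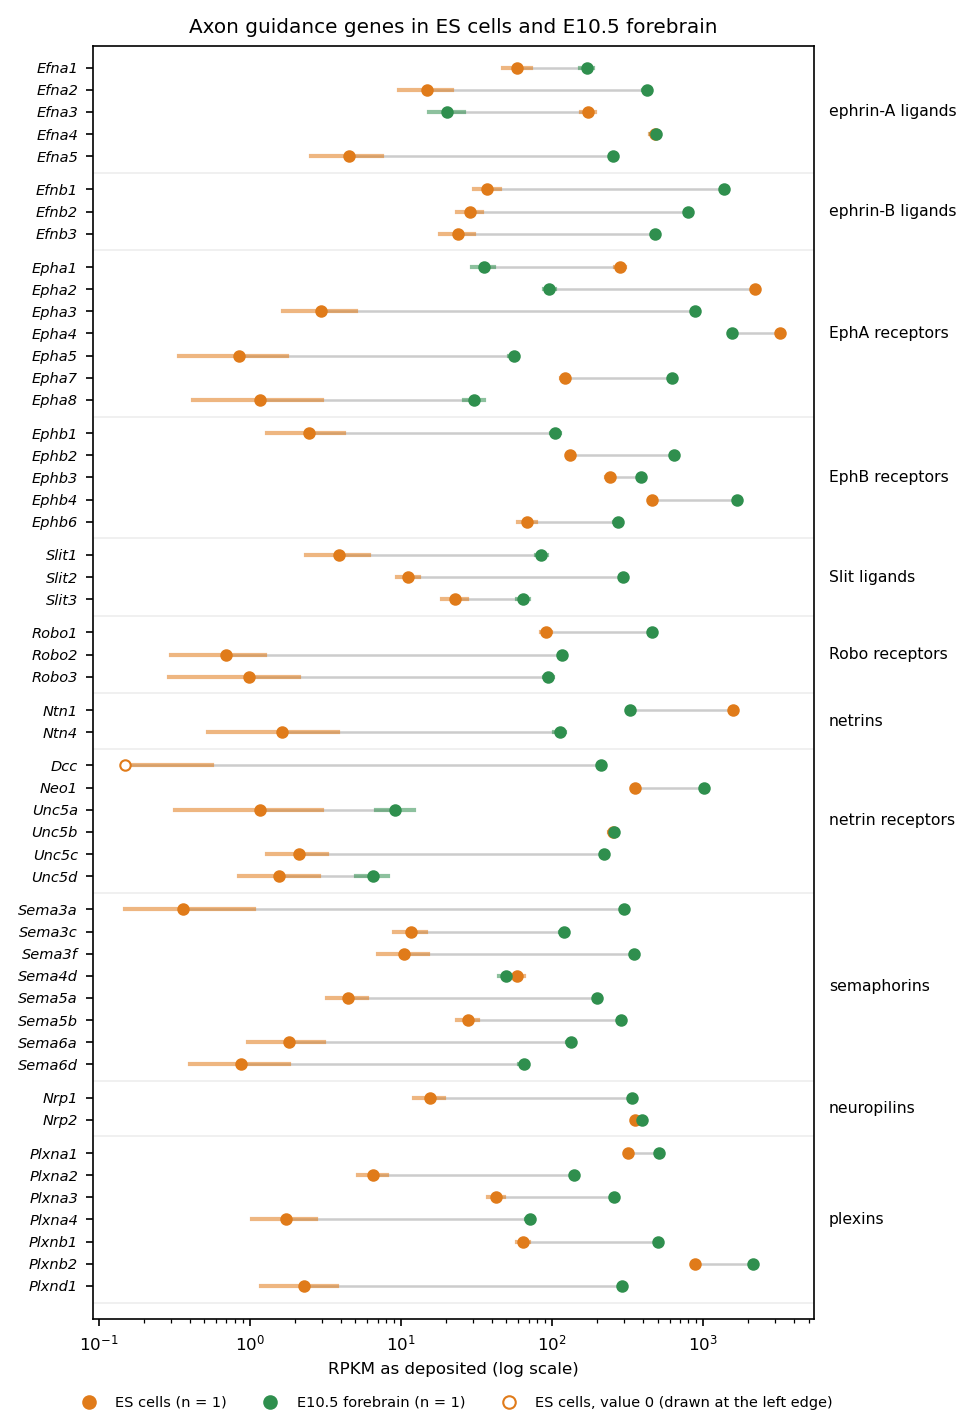
RPKM as deposited (log scale) of the 51 guidance genes by family, in ES cells (orange) and forebrain (green), with bars for the Poisson 95% counting intervals. *Dcc* has no read in ES cells, and *Epha1*, *Epha2*, *Epha4*, *Efna3* and *Ntn1* are the genes with the orange point at least 2-fold to the right.

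The ephrin-B genes were low in ES cells, and *Efnb1* and *Efnb2* had the highest ephrin values in the forebrain. In ES cells the highest ephrin values were those of *Efna4* and *Efna3*. *Efnb1* (chromosome X, 96331469 to 96344330, NCBIM37), a transmembrane ligand that also sets tissue boundaries, had 37.31 (30.37 to 44.96) in ES cells and 1384.17 (1348.78 to 1420.05) in the forebrain. It was 37.1-fold higher in the forebrain and had the highest value of any ligand there. *Efnb2*, the ligand that marks arterial endothelium and is also made by neural cells, had 28.55 in ES cells and 798.14 in the forebrain. *Efnb3*, known as a midline repellent, had 23.78 and 479.67. Together the 3 ephrin-B genes summed to 89.6 in ES cells and 2662.0 in the forebrain, a ratio of 29.7, with differences of 20.2-fold to 37.1-fold for the single genes.

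The ephrin-A genes, whose products are anchored by a lipid, did not move together. *Efna5*, which guides retinal and cortical axons, had 4.54 (2.54 to 7.49, from 15 reads) in ES cells and 254.34 in the forebrain, a 56.0-fold difference. A second identifier of this gene, whose exons hold 59.9% of the exonic length used here, had 6.57 and 277.32. *Efna2* had 14.9 in ES cells and 422.61 in the forebrain, 28.4-fold higher in the latter. *Efna1*, known from vessels and epithelia, had 58.71 and 169.86, a 2.89-fold difference. These 3 genes were called higher in the forebrain.

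*Efna3* went the other way, with 173.3 (155.27 to 192.31) in ES cells and 20.19 (15.41 to 25.99) in the forebrain. This is 8.58-fold higher in ES cells (6.5 to 11.5). The lincRNA *Gm15998* overlaps 14.1% of the exonic length of *Efna3* on the opposite strand and had 51.64 and 11.1. The libraries were stranded, but whether reads were counted by strand is not given in the sources used here, so the reads of both cannot be told apart. *Efna4* had 480.64 and 486.13, the highest ephrin value in ES cells, and its ratio of 1.01 (0.914 to 1.12) turned to the ES cell side when scaled by the upper quartile (log2 difference -0.07). A lincRNA on the opposite strand overlaps 168 bp of its exons.

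*Efna1*, *Efna3* and *Efna4* are neighbours on chromosome 3, with no other protein-coding gene between them. *Efna1* lies at 89075655 to 89085064, *Efna3* at 89117821 to 89126887 and *Efna4* at 89137312 to 89141950 (NCBIM37, all on the minus strand), with gaps of 32.8 and 10.4 kb. The middle gene was 8.58-fold higher in ES cells, the gene on its left was 2.89-fold higher in the forebrain, and the gene on its right did not differ by 2-fold. *Efna4* held 58.5% and *Efna3* 21.1% of the summed ephrin RPKM in ES cells. In forebrain the shares were 12.1% and 0.5%, while *Efnb1* held 34.5%.

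The EphA receptors contained the highest values of the whole set in ES cells. *Epha4* (chromosome 1, 77363760 to 77511663, NCBIM37), a receptor that binds both classes of ephrin, had 3255.94 (3207.05 to 3305.49) in ES cells and 1560.28 (1532.55 to 1588.38) in the forebrain. It ranked first of the 51 genes in ES cells and was still the third in the forebrain. Its difference of 2.09-fold was past the 2-fold limit on the deposited values (log2 difference -1.06) but not when the samples were scaled by their sums (-0.79) or by inferred reads (-0.97). *Epha2* (chromosome 4, 140857155 to 140885299), an epithelial receptor known from early embryos, had 2198.6 (2151.89 to 2246.09) in ES cells and 96.03 (88.16 to 104.42) in the forebrain. At 22.9-fold (21 to 25), it was the largest difference in favour of ES cells. *Epha1*, another receptor of epithelia, had 282.93 and 35.41, and was 7.99-fold higher in ES cells (6.69 to 9.66). *Zyx* overlaps 4.9% of its exonic length on the opposite strand and was higher in the forebrain, with 90.72 and 284.09.

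The other 4 EphA receptors of the set were all higher in the forebrain. *Epha3* (chromosome 16, 63543364 to 63863984), a receptor of neural and mesenchymal cells, had 2.98 (1.65 to 5.07, from 14 reads) in ES cells and 882.16 (860.2 to 904.64) in the forebrain. Its difference of 7.79 on log2(RPKM + 1) was the largest of the set on this scale. The ratio of its deposited values was 296-fold, and *Sema3a* and *Dcc* had larger ratios. *Epha7*, which has a role in cortical progenitors, had 121.77 in ES cells and 622.61 in the forebrain, 5.11-fold apart. *Epha5* had 0.85 from 7 reads in ES cells and 55.72 in the forebrain. *Epha8* had 1.17 from 5 reads and 30.33, a 25.9-fold difference with a counting interval of 9.87 to 73.2. The latter genes thus stayed low in the forebrain.

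All 5 EphB receptors had the higher value in the forebrain, and 4 of them were past 2-fold. *Ephb4*, the venous endothelial partner of *Efnb2*, had 462.3 in ES cells and 1669.25 in the forebrain, the second highest value of the set there. *Ephb2*, a receptor of commissural and retinal axons, had 132.47 and 641.85, 4.85-fold apart. *Ephb6*, whose kinase domain is known to be inactive, had 68.44 and 273.97. *Ephb1* was the only EphB gene near the lower end in ES cells, with 2.45 from 13 reads, and it reached 105.06 in the forebrain (42.9-fold). *Ephb3* had 240.62 and 390.03, and its 1.62-fold difference did not reach the limit.

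Summed over the 12 Eph receptors, the RPKM was nearly equal, with 6770.5 in ES cells and 6362.7 in the forebrain, while its make-up differed. *Epha4* and *Epha2* held 48.1% and 32.5% of the sum in ES cells. In forebrain, *Ephb4* held 26.2%, *Epha4* 24.5%, *Epha3* 13.9% and *Ephb2* 10.1%, and *Epha2* held 1.5%. Over the A class alone the sum was higher in ES cells (5864.2 and 3282.5), and over the B class in the forebrain (906.3 and 3080.2). The summed ephrins were 4.89-fold higher in the forebrain (821.7 and 4015.1).

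**Figure D3:**
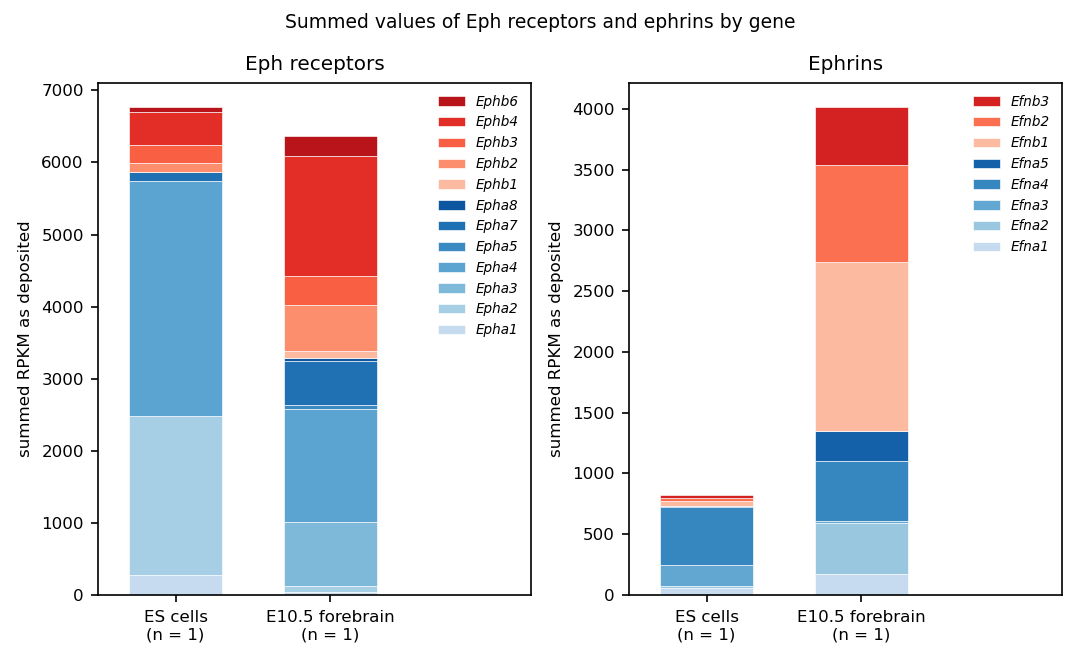
Summed RPKM as deposited of the Eph receptors (left) and ephrins (right) in each sample, stacked by gene, with A class genes in blue and B class genes in red. The receptor bars reach 6770.5 and 6362.7, with *Epha4* and *Epha2* filling most of the ES cell bar, and the ephrin bars reach 821.7 and 4015.1.

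All 6 Slit and Robo genes of the set were at least 2-fold higher in the forebrain. *Slit2*, a midline repellent, had 11.2 (9.38 to 13.19) in ES cells and 294.04 (286.24 to 301.96) in the forebrain, a 26.3-fold difference. *Slit1*, the most nervous system-restricted ligand of the family, had 3.92 from 19 reads and 85.01. *Slit3*, known from mesenchyme and vessels, had 22.84 and 64.13 and differed least, by 2.81-fold. In ES cells *Slit3* held 60.2% of the summed Slit RPKM, whereas in the forebrain *Slit2* held 66.3%.

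*Robo1* was the main receptor in both samples, with 91.88 in ES cells and 458.06 in the forebrain (4.99-fold). *Robo2* (chromosome 16, 73892551 to 74412070), which acts with *Robo1* in repelling axons, had 0.7 (0.3 to 1.26, from 9 reads) in ES cells and 116.64 in the forebrain. *Robo3*, a divergent receptor of commissural neurons, had 0.99 from 5 reads and 94.7. The differences of *Robo2* and *Robo3* were 167-fold (92.2 to 384) and 95.7-fold (44.9 to 325). *Robo1* and *Robo2* are adjacent protein-coding genes 846.2 kb apart. Their levels in ES cells differed by far more than their intervals, and in the forebrain *Robo1* was also the higher.

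The netrins of the set moved in opposite directions. *Ntn1* (chromosome 11, 68022866 to 68214325), the classical attractant of commissural axons, had 1582.05 (1547.9 to 1616.86) in ES cells and 330.86 (318.04 to 343.93) in the forebrain. It was thus 4.78-fold higher in ES cells (4.57 to 5.0), and was the third highest value of the set there. *Ntn4*, a netrin of basement membranes, had 1.63 from 5 reads in ES cells and 112.65 in the forebrain, a 69.1-fold difference (29.4 to 213). *Ntn1* held 99.9% of the summed RPKM of *Ntn1* and *Ntn4* in ES cells and 74.6% in the forebrain. Netrins outside the set are not in this sum. Among them, *Ntn3* had 45.15 in ES cells and 155.06 in the forebrain, and *Ntn5* had 14.74 and 4.68.

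Among the netrin receptors, *Dcc* (chromosome 18, 71418392 to 72510723), the attractive receptor, was the only member of the set with a value of 0. No read was found in ES cells, which allows an RPKM of up to 0.45 with a floor of 3 reads (0.56 as the upper limit of the counting interval), and 2072 reads gave 210.38 (201.42 to 219.64) in the forebrain. Set against this floor of 3 reads in ES cells, *Dcc* was at least 463-fold higher in the forebrain, and the counting interval of the ratio starts lower, at 376.5. *Neo1*, the related receptor, which also binds RGM proteins, was high in both samples, with 354.84 and 1013.91 (2.86-fold). It held 58.0% and 59.0% of the summed RPKM of the 6 netrin receptors.

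Of the repulsive Unc5 receptors, *Unc5c* had 2.11 from 21 reads in ES cells and 221.03 in the forebrain, a 105-fold difference (68.5 to 170). *Unc5b*, which is also a receptor of endothelial cells, had 251.91 and 258.87. Its ratio of 1.03 (0.955 to 1.11) turned to the ES cell side when scaled by the upper quartile (log2 difference -0.05). *Unc5a* and *Unc5d* were low in both samples, with 1.17 and 1.57 in ES cells and 9.14 and 6.5 in the forebrain, the lowest values of the set in the latter. Both were past 2-fold, although *Unc5d* was not with a pseudocount of 5 (log2 difference 0.81 in place of 1.55).

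Of the 8 semaphorins of the set, 7 were called higher in the forebrain, by 10.3-fold or more, and none was called higher in ES cells. The median difference of these 8 genes on log2(RPKM + 1) was 5.04. *Sema3a* (chromosome 5, 13125593 to 13602565), a secreted repellent of many axons, had 0.36 (0.07 to 1.06, from 3 reads) in ES cells and 297.92 (288.37 to 307.71) in the forebrain. Because of these 3 reads the ratio of 828-fold is loosely set, with an interval of 281 to 3987. *Sema3f*, a secreted ligand that acts through *Nrp2*, had 10.51 in ES cells and 350.92 in the forebrain (33.4-fold). *Sema3c*, another secreted ligand, had 11.71 and 120.22 (10.3-fold). These 3 secreted semaphorins thus had summed values of 22.6 in ES cells and 769.1 in the forebrain. Other Sema3 genes are outside the set and this sum. Of these, *Sema3b* (33.32 in ES cells and 17.44 in the forebrain) and *Sema3e* (32.13 and 21.99) were lower in the forebrain. *Sema3d* (4.93 and 68.89) and *Sema3g* (1.35 and 59.56) were higher there.

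Of the membrane-bound semaphorins, *Sema5a* had 4.45 in ES cells and 199.78 in the forebrain, and its relative *Sema5b* had 27.64 and 288.55. *Sema6a*, which interacts with A class plexins, had 1.81 from 13 reads and 133.15, and *Sema6d* had 0.87 from 8 reads and 64.93. The differences of these 4 genes ranged from 10.4-fold to 74.6-fold. *Sema4d*, a ligand of *Plxnb1* known from immune cells, was the exception, with 58.4 and 49.66. It held 50.5% of the summed RPKM of the semaphorins of the set in ES cells and 3.3% in the forebrain. Its log2 difference of -0.23 became 0.04 when scaled by the sums. Semaphorins outside the set are not in this summed RPKM. Among them, *Sema4b* had 441.65 in ES cells and 139.83 in the forebrain, and *Sema4c* had 26.73 and 686.95.

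The neuropilins, co-receptors of secreted semaphorins and of VEGF, differed from each other. *Nrp1*, the partner for *Sema3a*, had 15.5 (12.19 to 19.43) in ES cells and 339.45 (326.14 to 353.17) in the forebrain, 21.9-fold higher. *Nrp2* had 353.78 and 395.53, a ratio of 1.12. In ES cells *Nrp2* held 95.8% of their sum, and in the forebrain the shares were near equal, with 53.8% for *Nrp2*.

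All 7 plexins of the set had the higher value in the forebrain, 6 of them by at least 2-fold. *Plxnb2* (chromosome 15, 88985979 to 89011218), a receptor of membrane-bound semaphorins in neural progenitors, had 884.58 in ES cells and 2142.18 (2111.91 to 2172.72) in the forebrain. This was the highest value of the set in the forebrain and the fourth highest in ES cells. *Plxnb1* had 64.37 and 507.04 (7.88-fold). *Plxnd1*, which is needed in vessels, had 2.29 from 13 reads and 289.22, a 126-fold difference (76.5 to 246).

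The A class plexins, which signal for neuropilins, ranged widely. *Plxna1* had 319.39 in ES cells and 508.2 in the forebrain, 1.59-fold apart, and a lincRNA on the opposite strand overlaps 10.7% of its exonic length. *Plxna3* had 42.66 and 257.11 (6.03-fold). *Plxna2* had 6.54 and 139.09, and *Plxna4* had 1.73 from 18 reads and 71.95. The latter genes differed by 21.3-fold and 41.6-fold.

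**Figure D4:**
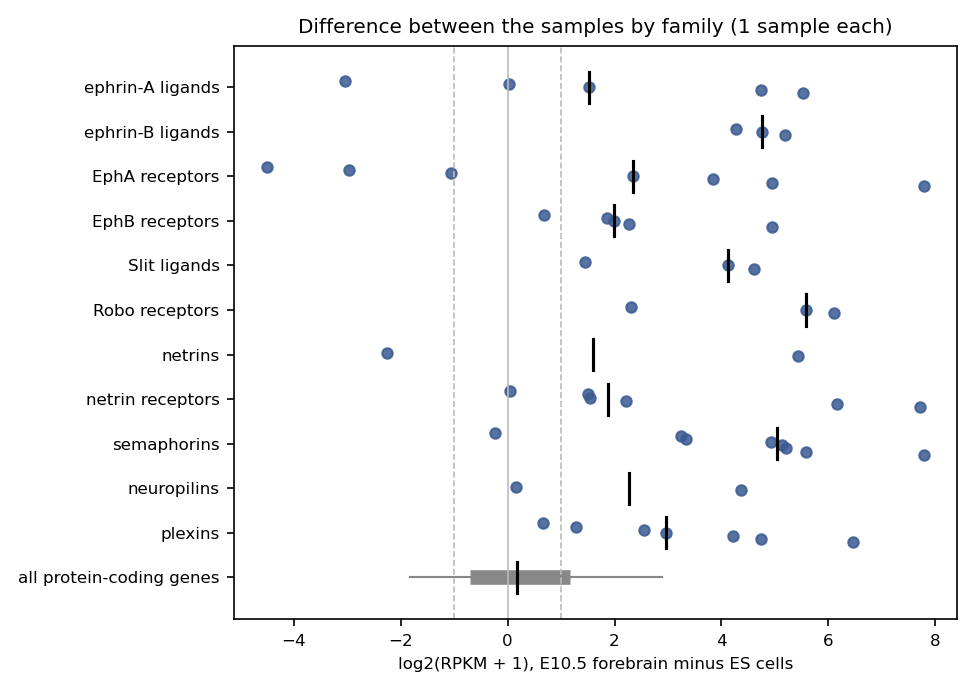
Difference in log2(RPKM + 1), forebrain minus ES cells, for each guidance gene by family (points, with the family median as a black line). The bottom row shows all protein-coding genes (median 0.17, thick bar 25 to 75% range, thin bar 10 to 90% range). Dashed lines mark 2-fold, and the family medians lie between 1.52 and 5.59.

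The medians of the 11 families lay between 1.52 (ephrin-A ligands) and 5.59 (Robo receptors) on this scale. The range of the single genes was widest in the EphA receptors, from -4.5 for *Epha2* to 7.79 for *Epha3*. Families in which every gene was past 2-fold in favour of forebrain were the ephrin-B ligands, the Slit ligands and the Robo receptors.

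The guidance genes share features that did not enter their choice. They are long, with a median span of 124 kb (25 to 75% range 26.3 to 322), compared with 18.6 kb for protein-coding genes (6.5 to 48.2). A span of at least 100 kb was found for 28 of the 51 genes (54.9%) and for 12.1% of protein-coding genes. Of these 28 genes, 25 were at least 2-fold higher in the forebrain, as were 50.1% of the protein-coding genes of this length. Of the 23 shorter guidance genes 15 were, compared with 24.9% of shorter protein-coding genes. The part of gene length in the differences was not tested.

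Their promoters were compared next, as 300 bases from 250 before to 50 after each start (RefSeq, GRCm38.p6). Of the 51 genes, 42 had a sequence, with 51 starts in all. The median number of CG dinucleotides, the sites of DNA methylation, was 23 (range 2 to 56), compared with 13 over 21263 starts of protein-coding genes. The genes 2-fold higher in the forebrain had a median of 24 (39 starts) and those 2-fold higher in ES cells of 17 (5 starts of 4 genes). GGGCGG, the GC box, was found on either strand in 70.6% of the starts of guidance genes and in 46.2% of all, and it contains a CG itself. TATAAA was found in 3.9% and 12.6%. ATGCAAAT, the octamer bound by POU factors, was found in 0 of the 51 starts and in 1.7% of all. A match of letters is a description only.

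The promoters of the 2 genes with the largest difference in each direction, among those with a single start in the table, are shown with each CG in capitals. They are *Epha2* (chr4:141300971-141301270, plus strand, 10 CG) and *Epha1* (chr6:42373219-42373518, minus strand, 14 CG), higher in ES cells. *Sema3a* (chr5:13396534-13396833, plus strand, 2 CG) and *Epha3* (chr16:63864126-63864425, minus strand, 18 CG) were higher in the forebrain. Sequences are in GRCm38.p6 and run 5′ to 3′ along the gene. The most CG-poor of the 4 is that of *Sema3a*, so a low number of CG was not tied to 1 direction among them. Starts were matched by gene symbol only. Whether they are the starts used in these samples was not tested.
Epha2: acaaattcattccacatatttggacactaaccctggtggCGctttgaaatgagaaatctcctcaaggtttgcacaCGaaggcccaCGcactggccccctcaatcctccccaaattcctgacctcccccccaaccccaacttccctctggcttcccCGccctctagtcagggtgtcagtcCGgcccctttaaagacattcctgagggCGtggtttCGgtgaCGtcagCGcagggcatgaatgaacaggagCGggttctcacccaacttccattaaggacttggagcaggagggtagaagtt
Epha1: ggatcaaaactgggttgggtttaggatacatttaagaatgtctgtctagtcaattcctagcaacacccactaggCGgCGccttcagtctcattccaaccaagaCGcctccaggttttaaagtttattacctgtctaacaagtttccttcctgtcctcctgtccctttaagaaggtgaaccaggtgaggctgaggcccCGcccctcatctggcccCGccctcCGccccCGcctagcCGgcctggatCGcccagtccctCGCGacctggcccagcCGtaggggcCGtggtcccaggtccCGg
Sema3a: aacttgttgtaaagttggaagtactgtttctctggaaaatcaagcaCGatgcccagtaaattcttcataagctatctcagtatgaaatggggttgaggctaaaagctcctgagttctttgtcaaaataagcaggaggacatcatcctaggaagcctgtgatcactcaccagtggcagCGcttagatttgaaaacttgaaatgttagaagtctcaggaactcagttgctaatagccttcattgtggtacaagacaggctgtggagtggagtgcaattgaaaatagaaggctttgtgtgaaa
Epha3: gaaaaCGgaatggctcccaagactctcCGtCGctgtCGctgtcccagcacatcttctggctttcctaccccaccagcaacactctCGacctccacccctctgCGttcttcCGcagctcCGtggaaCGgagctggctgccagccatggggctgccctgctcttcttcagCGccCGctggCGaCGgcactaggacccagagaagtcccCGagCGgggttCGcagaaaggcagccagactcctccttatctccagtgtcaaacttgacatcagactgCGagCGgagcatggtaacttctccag

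Other genes of the pathways were taken from 3 lists. Of 21 further members of the same families, 9 (42.9%) were at least 2-fold higher in the forebrain and 3 (14.3%) in ES cells, compared with 27.9% and 18.9% of protein-coding genes. Their median log2 difference was 0.75. *Sema4c*, a membrane-bound semaphorin, had 26.73 in ES cells and 686.95 in the forebrain, and *Plxnc1*, a plexin, had 18.82 and 133.24. The secreted *Sema3g* had 1.35 and 59.56, *Sema3d* had 4.93 and 68.89, and the netrin relatives *Ntng1* and *Ntng2* had 0.28 and 2.15 in ES cells and 15.59 and 28.16 in the forebrain. The 3 genes higher in ES cells were *Sema7a* (212.8 and 39.39), which is anchored by a lipid, *Sema4b* (441.65 and 139.83) and *Ntn5* (14.74 and 4.68). This list was less shifted than the 51 genes, although the lists were chosen with results known and the difference between them was not tested.

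Of 19 other guidance ligands, receptors and adhesion molecules, 15 (78.9%) were at least 2-fold higher in the forebrain and 0 in ES cells. For protein-coding genes the shares were 27.9% and 18.9%. *Cxcl12*, a chemokine, had 3.14 in ES cells and 632.75 in the forebrain, and its receptor *Cxcr4* had 25.66 and 884.78. *Flrt2*, a transmembrane protein that binds Unc5 receptors, had 29.02 and 969.2. *Fzd3*, a Wnt receptor needed for axon tracts, had 77.69 and 2208.75, and the adhesion molecule *Nrcam* had 16.78 and 352.91. The 4 genes within 2-fold were *Ryk* (931.81 and 1416.3), *Ptk7* (1198.83 and 1531.06), *Celsr3* (43.9 and 82.33) and *Dscaml1* (3.92 and 3.97).

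Of 38 intracellular effectors, 23 (60.5%) were at least 2-fold higher in the forebrain and 1 (2.63%) in ES cells. These shares were 27.9% and 18.9% for protein-coding genes. The remaining 14 effectors differed by less. The collapsin response mediators, which relay semaphorin signals to microtubules, were among the effectors higher in the forebrain. *Dpysl2* had 180.97 in ES cells and 5876.15 in the forebrain, *Dpysl3* had 212.8 and 2113.94, and *Dpysl4* had 2.55 and 667.2. *Srgap3*, a Slit and Robo effector, had 19.3 and 342.11, and *Vav3*, an exchange factor downstream of Eph receptors, had 4.56 and 215.44. Among the genes within 2-fold were the small GTPases *Rhoa*, with 1190.53 and 1018.57, and *Cdc42*, with 1605.85 and 2242.08. The gene higher in ES cells was *Rnd1*, a small GTPase that binds plexins, with 116.53 and 36.72. In these 3 lists, *Rhoa*, *Cdc42*, the genes within 2-fold and *Sema4b*, *Ntn3*, *Ntn5* and *Rnd1* were named after their values were seen.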

How the data were processed

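The authors prepared stranded libraries from total RNA depleted of rRNAs and sequenced single-end reads (50 bp in the methods, 100 bp in the labels). They mapped them to Ensembl NCBIM37 (mm9) with the HTSstation pipeline (Bowtie 0.12.7 in the processing notes) and deposited 1 RPKM value per gene and sample. Genes at 0 in both samples are not listed. The scaling between samples is not given in the sources used here, and the values were used without further normalization.

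Coordinates of all 29311 genes matched GENCODE vM1 of the same build, after adding 1 to the starts, and exonic length was the union of its exons. Genes of at most 2500 exonic bp served to estimate the step of 1 read. Whole multiples, to within 0.05, made up 59.2% of 5472 low values of ES cells and 61.2% of 5936 of E10.5 forebrain. Reads split between genes were assumed to be among the others, which was not tested. Reads were rounded to whole reads. For *Efna5*, with 2 identifiers, the longer gene was used.

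The step estimate and the 2-fold calls were checked on simulated data. The simulation used the same exonic lengths as the estimate and split the reads of only a small share of genes. It therefore cannot show how the step is recovered when gene lengths differ or when more values are off whole multiples. With 1 sample per group, no test was made. The named genes are all 51 members, examples from the wider lists (past 4-fold, RPKM of at least 10 in a sample; not every such gene is named) and up to 4 marker genes per list, except where stated. The protein sequences foreseen were not used here. Members and lists were chosen with earlier results of these data known. Python 3.11.15, numpy 2.4.6, pandas 2.3.3, scipy 1.17.1 and matplotlib 3.10.9 were used.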

Additional observations from a re-analysis of the deposited data

How the results depend on the processing

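The pseudocount (0.1 or 5), the scaling (sum, upper quartile or inferred reads), the minimum value, the fold asked for (1.5 or 4) and the use of counting intervals were varied, along with centring on the median protein-coding gene, which was chosen after seeing the data. The number of guidance genes higher in E10.5 forebrain ranged from 33 (4-fold) to 42 (1.5-fold), and that of genes higher in ES cells from 4 to 5. The median log2 difference ranged from 2.91 with a pseudocount of 5 to 3.85 for genes with an RPKM of at least 10. Scaling by the sums shifted log2 differences by 0.27 towards E10.5 forebrain, and by less for genes with low values. Under the 5 pseudocount and scaling alternatives, 49 of 51 genes kept their side of the 2-fold limit, and *Epha4* and *Unc5d* did not. Of 345 values computed under an alternative, 291 stayed within set limits, 54 moved further and 0 reversed a called difference. The limits were the counting error of a gene, the spread over genes of a median or 1.5 times a count. Some limits were wide. *Dcc*, whose ratio has no upper limit, could not count as moved. A family median counted as moved only beyond the lowest or highest gene of the family. The sign turned for *Efna4*, *Unc5b* and *Sema4d*, which were within 2-fold. In ES cells 45 genes had an RPKM of at least 1. With 1 sample per group, no sample could be left out and variation between samples of a cell type could not be measured.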

Other observations

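Some markers of other cell types were high in ES cells. *Stmn2*, listed as a neuronal gene, had an RPKM of 6910.29 in ES cells and 1056.31 in the forebrain, while *Dcx*, another neuronal gene, had 0.19 and 253.17. *Tubb3* had 795.19 and 3318.34. Of the 7 neuronal markers found in the tables, 6 were at least 2-fold higher in the forebrain (summed RPKM 7734.5 in ES cells and 5414.7 in the forebrain). *Sox1* and *Map2* were not found under these names. Of the 5 progenitor markers found, 4 were at least 2-fold higher in the forebrain, among them *Nes* (182.9 and 4127.24) and *Hes5* (3.58 and 1198.59), and *Sox2* was higher in ES cells (7181.95 and 2602.06). The macrophage marker *Cd68* had 394.82 in ES cells and 70.7 in the forebrain, while *Ptprc* had 0 and 68.52, and 3 of the 4 macrophage markers were at least 2-fold higher in the forebrain. Of 6 surface epithelium markers, 3 were at least 2-fold higher in the forebrain and 1, *Epcam*, in ES cells (1685.28 and 205.98). *Sox2* and *Epcam* were named after their values were seen. The 4 globin genes took 1.102% of the reads on genes in the forebrain.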
